A study of Mus musculus with 18 samples.

Results

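The differentiation of mouse embryonic stem (ES) cells was followed at 10 imprinted genes. They were H19, Igf2, Dlk1, Meg3, Peg3, Grb10, Impact, Cdkn1c, Mest and Peg10, chosen by symbol or older symbol from the authors' value table and all measured among the 15958 genes tested. The cells were of the lines PL2F8 and AB2.2, sampled at days 0, 2, 4, 6 and 8 after removal of leukemia inhibitory factor (LIF), a cytokine added to hold such cells in the undifferentiated state. Total RNA was hybridized to Illumina bead arrays, with 2 arrays per line at days 0, 2, 4 and 6 and 1 at day 8, 18 arrays in all. No genotype, strain, sex, passage or feeder layer is given in the labels, and neither is whether the 2 arrays of a group came from separate cultures, so the p-values cover the spread among arrays alone, and part or all of that spread may be technical. Since the labels name no separate culture series within a line, a difference between lines cannot be told apart from one between cultures.

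An imprinted gene is expressed mainly from the allele of 1 parent, because DNA methylation laid down in egg or sperm marks a control region near it. Such genes lie in clusters, in which a noncoding RNA from 1 parental allele and protein-coding genes from the other often share enhancers or a control region. Many of them govern growth of the embryo and placenta. H19, Meg3, Grb10 and Cdkn1c are mainly expressed from the maternal allele in the mouse embryo, and Igf2, Dlk1, Peg3, Impact, Mest and Peg10 from the paternal allele. The arrays measured total transcript and did not separate alleles.

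The H19 and Dlk1 domains each pair a maternal noncoding RNA with a paternal growth gene. In the RefSeq annotation of GRCm38, H19 (gene 14955, a noncoding RNA) lies at chr7:142575530-142578146 and Igf2 (gene 16002, insulin-like growth factor 2) at chr7:142650768-142666816, with 72621 bases between them. Dlk1 (gene 13386, a transmembrane protein related to Notch ligands) lies at chr12:109452485-109463336 and Meg3 (gene 17263, a noncoding RNA formerly named Gtl2) at chr12:109540996-109571729, 77659 bases apart. The promoter windows of RefSeq, 250 bases before to 50 bases after a start, are shown for the members of these domains that the table held, since methylation of CpG dinucleotides is the mark that imprinting uses. CpG dinucleotides are in capitals. For Igf2, with several start sites, and for Meg3, the window with the most CpG is given. The windows were chr7:142658755-142659054 on the minus strand for Igf2, chr12:109452573-109452872 on the plus strand for Dlk1 and chr12:109540746-109541045 on the plus strand for Meg3.
Igf2: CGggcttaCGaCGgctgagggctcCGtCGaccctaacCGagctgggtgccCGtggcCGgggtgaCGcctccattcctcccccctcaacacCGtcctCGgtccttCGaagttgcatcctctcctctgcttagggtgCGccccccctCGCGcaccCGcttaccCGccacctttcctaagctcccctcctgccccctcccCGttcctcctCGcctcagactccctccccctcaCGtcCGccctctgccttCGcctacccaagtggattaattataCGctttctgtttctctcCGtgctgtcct
Dlk1: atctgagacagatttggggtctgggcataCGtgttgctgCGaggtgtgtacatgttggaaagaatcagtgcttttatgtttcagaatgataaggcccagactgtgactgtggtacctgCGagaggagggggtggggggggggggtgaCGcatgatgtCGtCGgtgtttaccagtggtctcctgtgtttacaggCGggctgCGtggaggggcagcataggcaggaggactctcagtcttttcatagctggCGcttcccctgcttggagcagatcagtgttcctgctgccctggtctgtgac
Meg3: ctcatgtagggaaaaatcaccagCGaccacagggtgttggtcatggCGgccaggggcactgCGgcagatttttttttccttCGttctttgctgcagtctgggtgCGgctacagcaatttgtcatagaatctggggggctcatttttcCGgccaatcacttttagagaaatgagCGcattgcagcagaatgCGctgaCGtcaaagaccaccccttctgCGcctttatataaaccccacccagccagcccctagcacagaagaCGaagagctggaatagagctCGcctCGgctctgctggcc

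These windows held 24 CpG for Igf2, 9 for Dlk1 and 13 for Meg3, against a median of 7 over all 32851 windows. Those of Igf2 and Meg3 were picked for their CpG count, and the windows not shown held 14, 7 and 2 for Igf2 and 1 for Meg3. The imprinting control regions were not shown. The hexamer TGCCGC, which contains the CpG that the imprint-keeping protein ZFP57 reads when methylated, was searched on both strands. It occurred in the Meg3 window and not in the Igf2 or Dlk1 windows shown, though another Igf2 window not shown held it, as did 11.6% of all windows. TATAAA, also searched on both strands, was in the Meg3 window and in 13.6% of all windows. These are matches of letters and not measured sites.

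Some members (4) are also hosts of microRNAs, and 6 of their 9 mature microRNAs are shown, at least 1 for each host, because the arrays read these loci through the host transcript. The seed, bases 2 to 8, is in capitals, and no seed was shared among the 9 mature microRNAs found within the genes. The arrays did not measure the mature microRNAs. miR-675 lies within H19 (chr7:142577112-142577133 for the 5p arm, minus strand), miR-483 within Igf2 (chr7:142654968-142654989 for the 5p arm, minus strand), miR-770 within Meg3 (chr12:109563710-109563731 for the 5p arm, plus strand) and miR-335 within Mest (chr6:30741314-30741336 for the 5p arm, plus strand).
miR-675-5p: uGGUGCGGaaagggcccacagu
miR-675-3p: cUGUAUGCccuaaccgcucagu
miR-483-5p: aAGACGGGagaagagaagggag
miR-483-3p: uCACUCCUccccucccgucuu
miR-770-5p: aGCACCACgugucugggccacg
miR-335-5p: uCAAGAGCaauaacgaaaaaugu

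Signals below are log2 values after background correction and quantile normalization, changes are differences of such values, and ± gives the standard error of the linear model in limma. A change was called at an adjusted p below 0.05 over all genes. Mean array signal was 283.6 to 492.7 with 41.9% to 45% of probes detected, except on the PL2F8 arrays of day 6 (137.4 and 134.8, with 40% and 37.8% detected) and of day 8 (60.14, with 20.9% detected). The 2 PL2F8 arrays of day 6 also differed more from each other than other pairs did (standard deviation of the difference over genes 0.355, against 0.16 to 0.201). Scaling each array on its median in place of quantile normalization moved the median change of all genes in PL2F8 to -1.07 at day 6 and -2.02 at day 8, against -0.03 and -0.17 as normalized here. The AB2.2 medians with that scaling were 0.17 and 0.08. Member changes in PL2F8 at those days are therefore given with their median-scaled values, in places also set against the median of all genes, while no member reversed in AB2.2 at day 6 or 8 under median scaling. The ES markers Pou5f1, Nanog and 8 others were detected on all 4 day 0 arrays.

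H19 was high in both lines at the late days, after a drop at day 2. In PL2F8, H19 read 10.78 and 10.88 at day 0, 9.57 and 9.52 at day 2, 11.44 and 11.39 at day 4, 12.88 and 12.98 at day 6, and 13.002 at day 8. In AB2.2 it read 10.28 and 10.43 at day 0, 9.83 and 9.88 at day 2, 12.37 and 12.30 at day 4, 13.73 and 13.82 at day 6, and 14.35 at day 8. No day 6 or day 8 array overlapped the day 0 arrays of its line. Over both lines H19 fell by 0.89 ± 0.06 at day 2 (adjusted p = 1.01e-07) and rose by 2.76 ± 0.06 at day 6 (adjusted p = 3.47e-12). The day 6 rise was 2.10 ± 0.08 in PL2F8 and 3.42 ± 0.08 in AB2.2, and a second H19 probe gave 2.197 in PL2F8 and 3.73 in AB2.2. With median scaling the PL2F8 change of H19 was 0.52 at day 6, 1.59 above the median of all genes, and -1.39 at day 8, 0.63 above it.

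Igf2, which signals growth through the IGF1 receptor and the insulin receptor, fell at day 2 in both lines, by more in PL2F8. It parted further between the lines by day 4. The PL2F8 arrays gave 10.32 and 10.31 at day 0, 7.87 and 7.67 at day 2, 8.72 and 8.58 at day 4, 10.94 and 11.12 at day 6, and 11.32 at day 8. The AB2.2 arrays gave 11.09 and 11.12 at day 0, 9.27 and 9.22 at day 2, 11.83 and 11.82 at day 4, 13.86 and 13.86 at day 6, and 14.77 at day 8. PL2F8 was thus still below its day 0 level at day 4, when AB2.2 was already above its own. The day 2 change was -2.203 ± 0.06 over both lines (adjusted p = 1.33e-10), the largest fall of any member at that day. It was -2.55 ± 0.09 in PL2F8 and -1.86 ± 0.09 in AB2.2. The difference of these changes was -0.69 ± 0.13 (interaction adjusted p = 0.00509, with 9.98% of all genes called), or -0.68 with median scaling. At day 4 Igf2 had changed by -1.66 ± 0.09 in PL2F8 and 0.72 ± 0.09 in AB2.2, and the difference of the changes, -2.38 ± 0.13, was called (interaction adjusted p = 1.71e-07, with 29.9% of all genes called). At day 6 the changes were 0.72 ± 0.09 in PL2F8 and 2.76 ± 0.09 in AB2.2. The PL2F8 value turned to -1.30 with median scaling, 0.23 below the median of all genes.

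Meg3 had the largest rise of any member at day 2 over both lines. PL2F8 read 6.81 and 6.76 at day 0, 8.49 and 8.69 at day 2, 8.86 and 8.90 at day 4, 10.32 and 10.15 at day 6, and 8.49 at day 8. AB2.2 read 7.14 and 7.10 at day 0, 8.59 and 8.66 at day 2, 9.31 and 9.37 at day 4, 9.56 and 9.68 at day 6, and 9.54 at day 8. Every later array lay above the day 0 arrays of its line. The change over both lines was 1.65 ± 0.06 at day 2 (adjusted p = 1.03e-09) and 2.97 ± 0.06 at day 6 (adjusted p = 3.78e-12). The day 6 change was 3.45 ± 0.09 in PL2F8 (1.44 with median scaling) and 2.50 ± 0.09 in AB2.2. At day 8 it was 1.71 ± 0.11 in PL2F8, or -1.93 with median scaling, and 2.42 ± 0.11 in AB2.2. These values are from 1 of 5 probes, deposited as Gtl2. Of the other 4, 2 were detected on no array, and the remaining ones, close to background, changed by 0.24 and 0.33 at day 6. The mean of the kept probes gave 1.18 over both lines. Which transcript form each probe reads is not given in the sources used here.

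Dlk1 fell in PL2F8 during the first 4 days and did not fall in AB2.2. PL2F8 had 9.29 and 9.33 at day 0, 7.62 and 7.70 at day 2, 8.14 and 8.07 at day 4, 10.05 and 10.10 at day 6, and 9.59 at day 8. AB2.2 had 7.90 and 7.89 at day 0, 8.12 and 8.07 at day 2, 8.28 and 8.26 at day 4, 11.23 and 11.35 at day 6, and 13.36 at day 8. The day 0 arrays of the lines did not overlap, with PL2F8 1.42 ± 0.07 above AB2.2 (adjusted p = 1.81e-07). At day 2 Dlk1 had changed by -1.65 ± 0.07 in PL2F8 and by 0.20 ± 0.07 in AB2.2, where it was not called (adjusted p = 0.0542). The difference of these changes was -1.85 ± 0.10 (interaction adjusted p = 1.78e-06, with 9.98% of all genes called), between arrays that were not dim. By day 8 Dlk1 had risen by 5.47 ± 0.09 in AB2.2, 44.2-fold, the largest change of any member in either line. In PL2F8 it had changed by 0.77 ± 0.07 at day 6 and 0.28 ± 0.09 at day 8, or by -1.26 and -3.85 with median scaling.

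**Figure D1:**
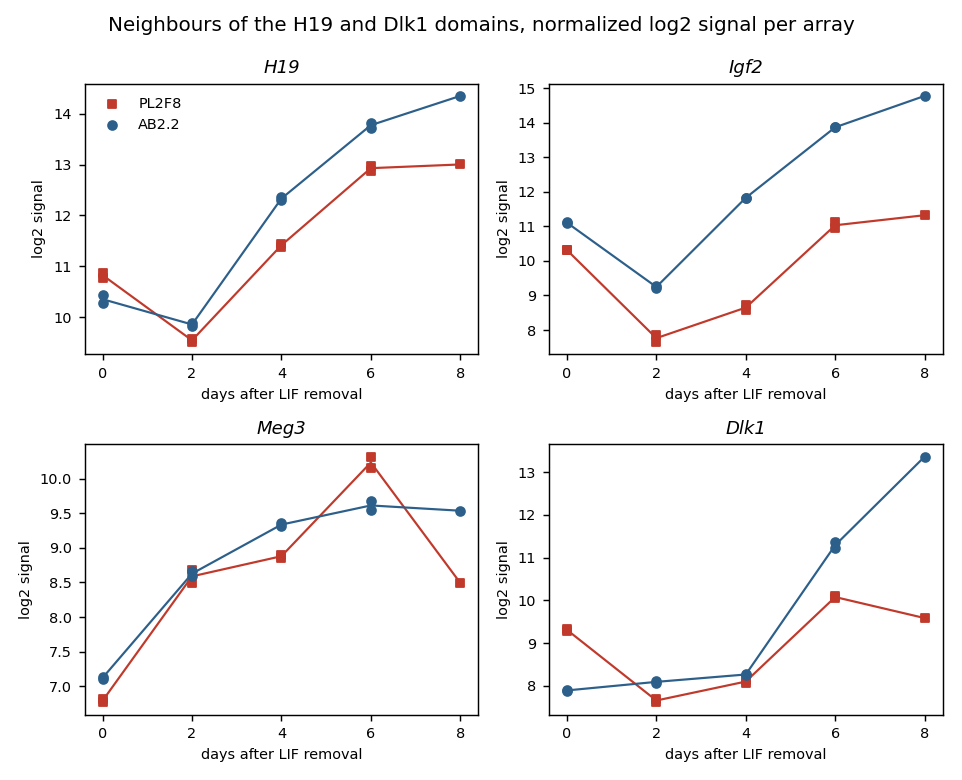
Normalized log2 signal of the 4 members of the H19 and Dlk1 domains on each of the 18 arrays, by day after LIF removal (PL2F8 squares, AB2.2 circles, lines through the means of each day). Igf2 was lower in PL2F8 at every day, with a wider gap from day 4. Dlk1 started higher in PL2F8 and ended higher in AB2.2, while Meg3 had risen in both lines by day 2.

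Within a domain, neighbours did not change by equal amounts. The comparison used the log2 difference of 2 neighbours on the same array at days 6 and 8 against day 0, with an exact two-sided permutation test within lines. There were 100 arrangements, so 0.01 is the smallest p possible, and p was adjusted over the 6 pairs measured. H19 minus Igf2 in PL2F8 was 1.94 and 1.86 at day 6 and 1.68 at day 8, against 0.46 and 0.57 at day 0. In AB2.2 it was -0.14 and -0.04 at day 6 and -0.42 at day 8, against -0.81 and -0.69 at day 0. H19 therefore gained on Igf2 in both lines, by 1.31 in PL2F8 and 0.55 in AB2.2 (exact permutation p = 0.01, adjusted 0.015). The gain was already present at day 2, when the difference was 1.70 and 1.85 in PL2F8 and 0.56 and 0.66 in AB2.2.

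The difference between Meg3 and Dlk1 shifted in opposite directions in PL2F8 and AB2.2. Meg3 minus Dlk1 in PL2F8 was 0.27 and 0.05 at day 6 and -1.09 at day 8, against -2.48 and -2.57 at day 0, a shift of 2.27. In AB2.2 the difference was -1.67 and -1.68 at day 6 and -3.82 at day 8, against -0.76 and -0.79 at day 0, a shift of -1.62. All late arrays lay on 1 side of day 0 in PL2F8 and on the other in AB2.2, and the mean over lines of 0.33 was not past the threshold (exact permutation p = 0.76). At days 2 and 4 Meg3 had gained on Dlk1 in both lines.

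The other neighbour pairs were set up in the same way. Cdkn1c, which encodes a cyclin-dependent kinase inhibitor, gained 1.204 on Phlda2, a maternally expressed gene of the same domain that limits placental growth (0.94 in PL2F8, 1.47 in AB2.2). Grb10 gained 3.33 on Cobl, an actin-nucleating protein gene beside it (2.39 in PL2F8, 4.27 in AB2.2). Both had an exact permutation p of 0.01, adjusted 0.015. Peg3 minus Usp29 is not read as a comparison of neighbours, since Usp29 was undetected on every day 0 array and on 3 of 4 arrays of day 6. Mest minus Copg2 shifted by -0.40 in PL2F8 and 1.38 in AB2.2, with an adjusted exact permutation p of 0.54 for their mean. Peg10 could not be paired with Sgce, which was not kept.

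**Figure D2:**
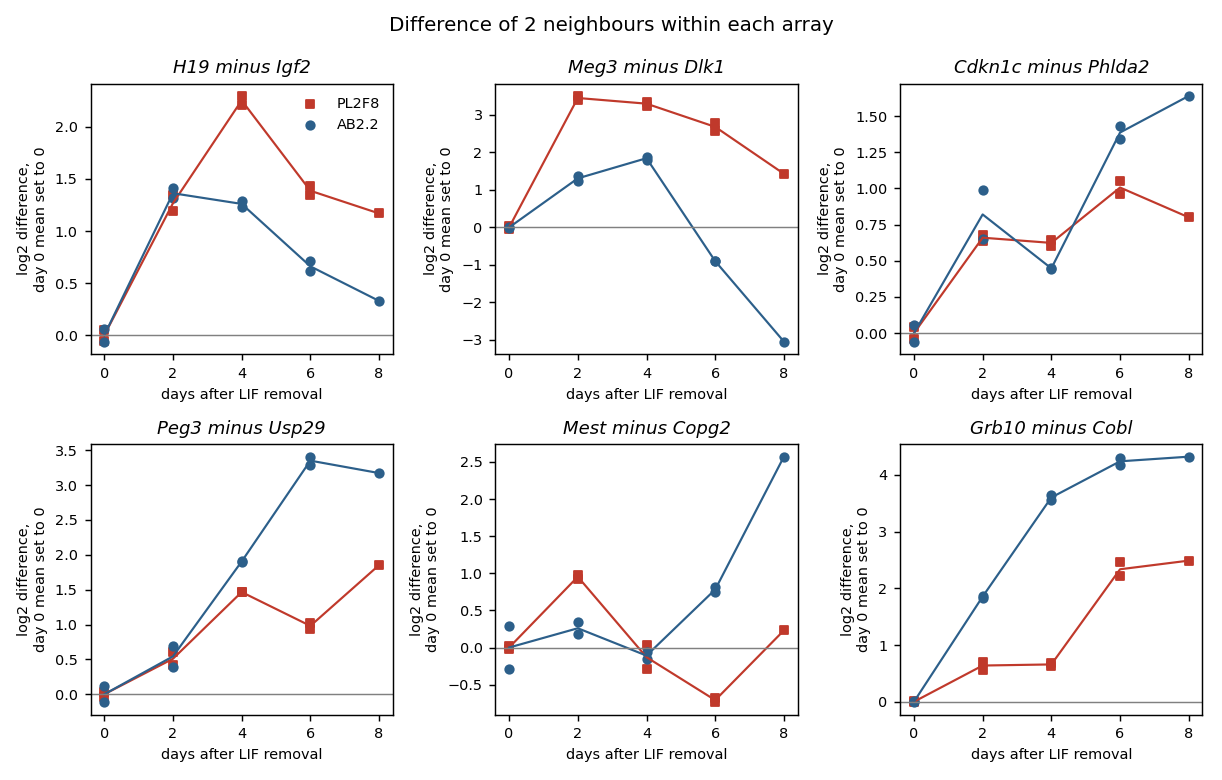
Difference of the log2 signals of 2 neighbouring genes on the same array, with the mean of the line's day 0 arrays set to 0 (PL2F8 squares, AB2.2 circles). H19 minus Igf2 stayed above its day 0 level in both lines, and Meg3 minus Dlk1 lay above its day 0 level in PL2F8 and below it in AB2.2 at days 6 and 8, with shifts of 2.27 and -1.62 over those days. The Usp29 and Copg2 panels are drawn as measured, Usp29 being near background.

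The members outside the 2 domains split by line as well. Peg3, a zinc-finger protein gene, lay at chr7:6703892-6730462. Its arrays in PL2F8 gave 7.38 and 7.46 at day 0, 8.00 and 8.05 at day 2, 8.94 and 8.84 at day 4, 8.37 and 8.36 at day 6, and 8.99 at day 8. In AB2.2 they gave 7.85 and 7.79 at day 0, 8.49 and 8.41 at day 2, 9.55 and 9.56 at day 4, 11.26 and 11.04 at day 6, and 11.18 at day 8. Peg3 had risen in both lines by day 4, with changes of 1.47 ± 0.08 in PL2F8 and 1.74 ± 0.08 in AB2.2 and an interaction of -0.27 ± 0.12 that was not past the threshold (adjusted p = 0.118). With median scaling the day 4 changes were 0.98 in PL2F8 and 1.90 in AB2.2, and their difference of -0.92 was called (adjusted p = 0.000399). At day 6 the changes were 0.94 ± 0.08 in PL2F8 (-0.93 with median scaling) and 3.33 ± 0.08 in AB2.2.

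Mest, which encodes a protein of the hydrolase fold, lies at chr6:30733506-30748466. In PL2F8 it had 8.43 and 8.45 at day 0, 9.25 and 9.18 at day 2, 8.77 and 8.58 at day 4, 7.83 and 7.89 at day 6, and 8.11 at day 8. The AB2.2 arrays had 9.04 and 8.66 at day 0, 9.28 and 9.29 at day 2, 9.03 and 9.24 at day 4, 10.07 and 10.07 at day 6, and 11.72 at day 8. At day 6 the PL2F8 arrays were below and the AB2.2 arrays above those of day 0. The changes were -0.58 ± 0.12 in PL2F8 (-2.38 with median scaling) and 1.22 ± 0.12 in AB2.2, and the 3 kept Mest probes agreed in sign in each line. Their mean over lines, 0.32 ± 0.08, turned to -0.43 with median scaling, 0.07 below the median of all genes.

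Peg10, a gene derived from a retrotransposon and needed for the placenta, lies at chr6:4747306-4760517. It was the dimmest member, and in PL2F8 it had 6.58 and 6.51 at day 0, 5.85 and 5.84 at day 2, and 5.14 and 4.92 at day 4. At day 6 the PL2F8 arrays had 4.88, not detected, and 5.68, and at day 8 Peg10 had 4.25, not detected. Against this, AB2.2 had 7.04 and 6.94 at day 0, 5.69 and 5.91 at day 2, 6.93 and 6.82 at day 4, 7.68 and 7.77 at day 6, and 8.06 at day 8. At day 4, before the dim arrays, PL2F8 had fallen by 1.52 ± 0.19, against -0.12 ± 0.19 in AB2.2, and the difference of the changes was called (-1.40 ± 0.27, interaction adjusted p = 0.00225). At day 8 no fold is given in PL2F8, since the lowest detected signal of that array, 7.06, was above the day 0 level. AB2.2 rose by 0.73 ± 0.19 at day 6.

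Grb10, an adaptor protein that restrains insulin and IGF receptor signalling, lies at chr11:11930499-12037428. It fell by 0.80 ± 0.09 at day 4 and by 0.94 ± 0.09 at day 6 in PL2F8 (-1.32 and -2.97 with median scaling), and in AB2.2 changed by 0.04 ± 0.09 (not called) and 0.34 ± 0.09. The day 6 arrays had 9.39 and 9.66 in PL2F8, against 10.43 and 10.51 at day 0, and 11.24 and 11.27 in AB2.2, against 10.88 and 10.94 at day 0. PL2F8 arrays of Grb10 had 9.99 and 9.92 at day 2, 9.68 and 9.67 at day 4 and 10.25 at day 8. AB2.2 arrays of Grb10 had 10.79 and 10.94 at day 2, 10.99 and 10.92 at day 4 and 11.89 at day 8. The lines did not overlap at any of the 5 days, with PL2F8 lower. A second, much dimmer Grb10 probe rose by 0.51 at day 6 in PL2F8, opposite to the bright one, and the mean of both gave 0.15 over lines in place of -0.30.

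Cdkn1c lies at chr7:143458339-143461059 and rose late. Its arrays read 11.37 and 11.46 in PL2F8 at day 6, against 9.72 and 9.72 at day 0, and 11.66 and 11.64 in AB2.2 at day 6, against 10.37 and 10.36 at day 0. The change was 1.49 ± 0.06 over both lines (adjusted p = 3.76e-10), and in PL2F8 it was 1.70 ± 0.08, or -0.29 with median scaling, 0.78 above the median of all genes. PL2F8 arrays of Cdkn1c had 9.94 and 10.08 at day 2, 10.18 and 10.19 at day 4 and 11.84 at day 8. AB2.2 arrays of Cdkn1c had 10.91 and 10.73 at day 2, 9.71 and 9.64 at day 4 and 12.59 at day 8. At day 4 it had changed by 0.47 ± 0.08 in PL2F8 (-0.06 with median scaling) and by -0.70 ± 0.08 in AB2.2.

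Impact, an inhibitor of the translation kinase GCN2, is on chromosome 18. It read 12.25 and 12.34 in PL2F8 at day 6, against 10.95 and 10.99 at day 0, and 11.13 and 11.05 in AB2.2 at day 6, against 10.39 and 10.37 at day 0. The rise over both lines was 1.02 ± 0.05 (adjusted p = 3.01e-09), with 1.32 ± 0.07 in PL2F8 (-0.44 with median scaling, 0.63 above the median of all genes) and 0.71 ± 0.07 in AB2.2. PL2F8 arrays of Impact had 11.36 and 11.24 at day 2, 11.97 and 11.99 at day 4 and 12.00 at day 8. AB2.2 arrays of Impact had 10.98 and 10.99 at day 2, 11.16 and 11.17 at day 4 and 10.70 at day 8. Every later array of Impact lay above those of day 0 in its line. A second, dimmer Impact probe changed by -0.55 in AB2.2 at day 6, opposite to the bright one.

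**Figure D3:**
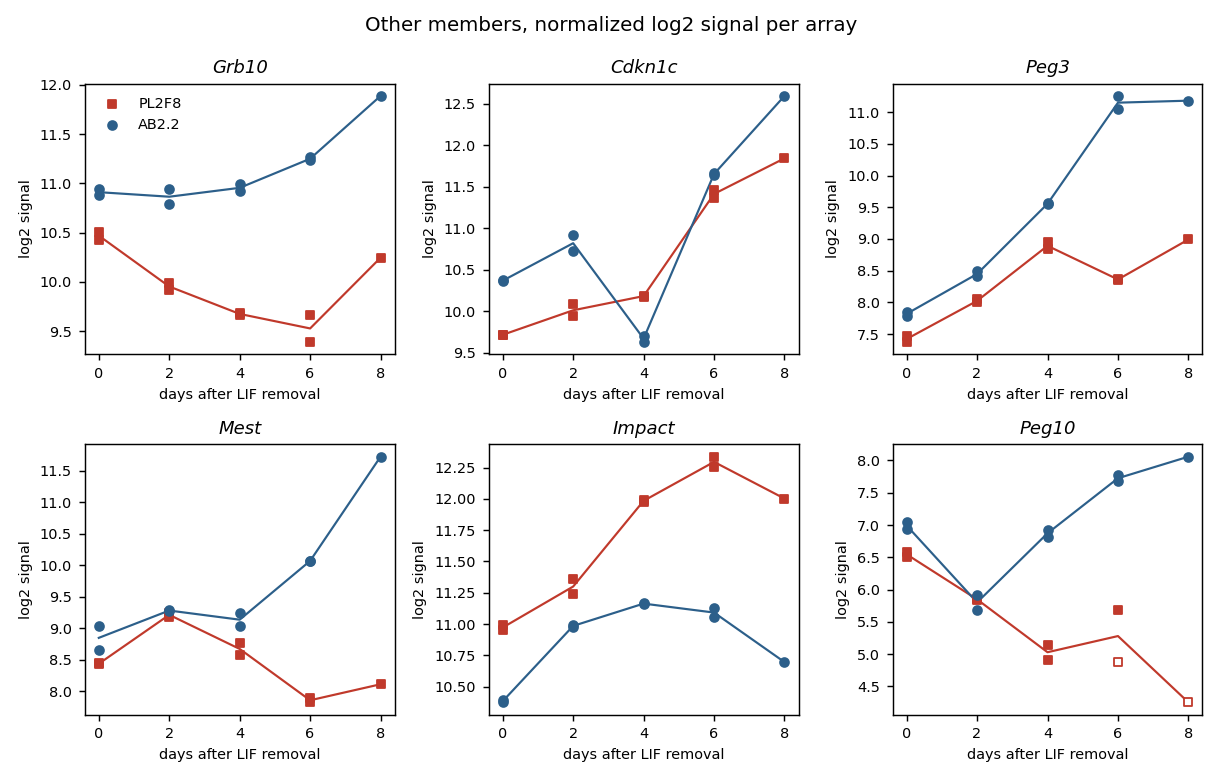
Normalized log2 signal of the other 6 members on each array, by day after LIF removal (PL2F8 squares, AB2.2 circles, open symbols not detected, lines through the means of each day). Peg3 and Mest parted between the lines at day 6, and Peg10 was undetected on 1 PL2F8 array of day 6 and on that of day 8.

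Counted together, 5 members were called higher and 5 lower at day 2 over both lines, where 45.4% of all genes were called, 22.2% higher and 23.2% lower. At day 4, with 60.1% of genes called (31.9% higher, 28.2% lower), 5 were higher and 4 lower. In PL2F8 the member counts were 5 higher and 5 lower at day 2 (36.2% of genes called, 17.4% higher and 18.8% lower) and 5 higher and 4 lower at day 4 (50.8% called, 26.2% higher and 24.7% lower). In AB2.2 they were 5 higher and 3 lower at day 2 (34.5% called, 17.3% higher and 17.2% lower) and 6 higher and 1 lower at day 4 (50.8% called, 27.3% higher and 23.5% lower). At day 6, with 67.8% called, 8 were higher (33.9% of genes) and 1 lower (33.9%), with a median change of 1.61 for the members and 0.01 for all genes. At day 8, with 69.7% called, 9 were higher (32.3%) and 1, Peg10, was lower (37.4%), which rests on its undetected PL2F8 array. In PL2F8 at day 6 (66% called), 7 members rose (31% of genes) and 3 fell (35%), while median scaling left H19 and Meg3 higher and put 8 lower. In PL2F8 at day 8 (72.3% called), 7 rose (31.5%) and 1 was called lower (40.8%), namely Peg10, whose direction cannot be read on that array, while median scaling put all 10 lower. In AB2.2 at day 6 (54.7% called), all 10 were higher (28.2%; 26.5% of genes were lower), and median scaling left all 10 higher. At day 8 in AB2.2 (48.2% called), all 10 were again higher (24%; 24.2% of genes were lower), also with median scaling. With median scaling the share of higher genes among those called went to 31.6% at day 2, 40.3% at day 4, 22.5% at day 6 and 10.1% at day 8, against 48.8%, 53.1%, 50% and 46.3% as normalized here. Over both lines the member counts were then 4 higher and 5 lower at days 2 and 4, and 7 higher and 3 lower at day 6. At day 8 they were 4 higher and 4 lower. The member medians over both lines were then 0.65 at day 6 and 0.11 at day 8, against -0.36 and -0.88 for all genes.

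The members were also summarised by the allele that expresses them. In PL2F8 the median change of the 4 maternally expressed members was 1.90 at day 6 and 1.91 at day 8, and that of the 6 paternally expressed members 0.74 and 0.64. In AB2.2 the medians were 1.89 and 2.32 for the maternal class and 1.99 and 3.12 for the paternal class. With median scaling the PL2F8 medians were 0.11 at day 6 and -1.98 at day 8 for the maternal class and -1.28 and -3.15 for the paternal class. In AB2.2 they were then 2.17 and 2.44 for the maternal and 2.13 and 3.22 for the paternal class. The maternal class thus had the higher median in PL2F8 under both scalings, and in AB2.2 the order at day 6 turned with the scaling. Within the classes the spread was wide. Grb10 of the maternal class fell in PL2F8 by 0.94, while Meg3 rose by 3.45, and in the paternal class Peg10 and Impact differed likewise. The classes were chosen with results known and were not tested.

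**Figure D4:**
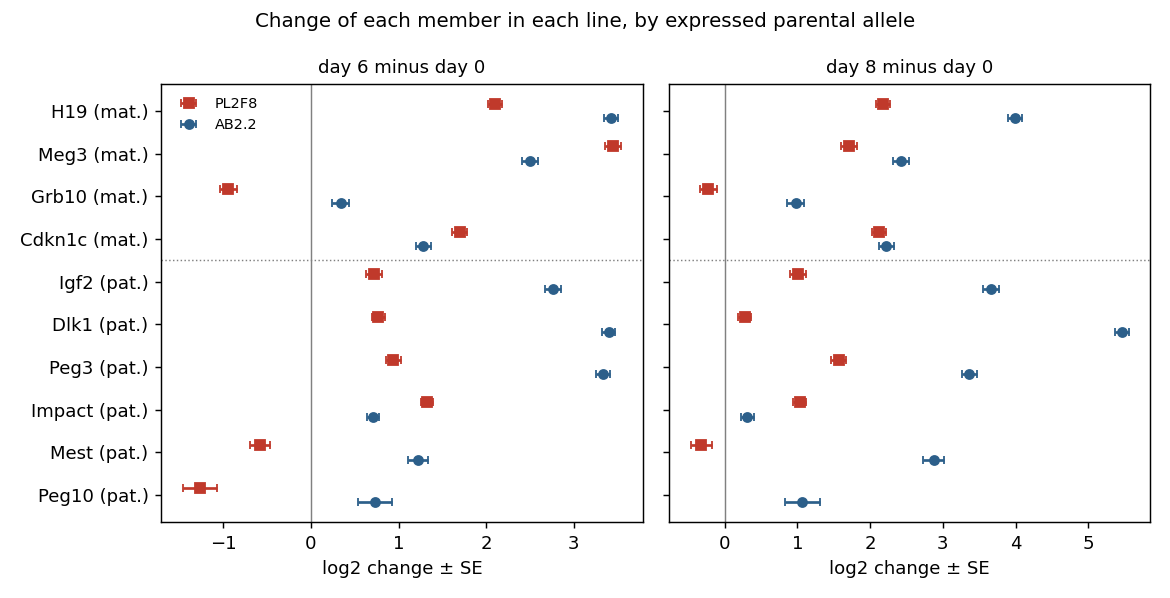
Change of each member at day 6 (left) and day 8 (right) against day 0, on the log2 scale with the standard error of the model, in PL2F8 (squares) and AB2.2 (circles); the dotted line separates members expressed from the maternal allele (above) from those expressed from the paternal allele. Every AB2.2 value lies above 0, and Grb10, Mest and Peg10 lie below 0 in PL2F8 at day 6. Peg10 in PL2F8 at day 8 is not drawn because it was undetected there.

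The lines already differed at day 0, on bright arrays. There 27% of all genes were called, 14% higher and 13% lower in PL2F8. Of the members, 3 were higher in PL2F8: Dlk1, Impact by 0.59 ± 0.07 and H19 by 0.47 ± 0.08. Another 6 were lower in PL2F8, with Igf2 at -0.79 ± 0.09 and Cdkn1c at -0.65 ± 0.08 first, then Grb10, Mest, Peg3 and Meg3 between -0.44 and -0.33. Peg10 was not called (adjusted p = 0.113). With median scaling no member changed sign at day 0, but Meg3 (-0.15, adjusted p = 0.384), Peg3 (-0.24, adjusted p = 0.195) and Mest (-0.26, adjusted p = 0.206) lost their calls. Averaged over the 5 days, where 71.1% of genes were called (34% higher and 37.1% lower), 9 members were lower in PL2F8, from Igf2 at -2.35 ± 0.04 to Meg3 at -0.25 ± 0.04, and Impact was higher by 0.85 ± 0.04 (-0.41 with median scaling, 0.27 above the median of all genes). Leaving out the dim PL2F8 arrays left only the earlier days with both lines, and Dlk1 averaged 0.27 over them. That value covers fewer days, so it is not the same average with the dim arrays removed. For the average over the 5 days, the share of higher genes among those called was 8.62% with median scaling and 47.8% otherwise.

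The change at day 6 differed between the lines for all 10 members, with 55.2% of all genes called, and on any day for all 10, with 80.3% called. The difference of changes, PL2F8 minus AB2.2, was most negative for Dlk1 (-2.63 ± 0.10), Peg3 (-2.39 ± 0.12) and Igf2 (-2.04 ± 0.13). It was positive for Meg3 (0.95 ± 0.13), Impact (0.61 ± 0.10) and Cdkn1c (0.41 ± 0.12), and these 3 turned to -1.45, -1.34 and -1.74 with median scaling, where the median of all genes was -1.41. Under that scaling 4.93% of the called genes were positive, against 46.1% otherwise.

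Marker genes of other cell types moved over the same days. The summed level of 11 visceral endoderm markers was 11.01 and 11.28 in PL2F8 at day 6, against 9.33 and 9.32 at day 0, and 15.13 and 15.13 in AB2.2 at day 6, against 10.87 and 10.87 at day 0. Of them, Afp and Ttr were undetected on every day 0 array, and all 11 were detected in AB2.2 from day 4. In PL2F8, Cubn, Gata4 and Foxa2 were undetected on each array of day 6. Mesoderm markers (7 of 9 measured) summed to 8.42 and 8.33 in PL2F8 and 9.82 and 9.87 in AB2.2 at day 6, with 7.58 and 7.56 in PL2F8 and 7.54 and 7.51 in AB2.2 at day 0. Trophoblast markers (5 of 9 measured) summed to 11.13 and 11.10 in PL2F8 and 10.65 and 10.70 in AB2.2 at day 6, with 10.77 and 10.54 in PL2F8 and 10.33 and 10.29 in AB2.2 at day 0. Such sums follow the brightest genes, and Cdx2 and Eomes were undetected in PL2F8 at day 6. Fibroblast and feeder markers (6 of 11 measured) summed to 11.64 and 11.65 in PL2F8 and 11.39 and 11.44 in AB2.2 at day 0. At day 2 they gave 11.27 and 11.24 in PL2F8 and 11.12 and 11.11 in AB2.2. The day 6 sums were 12.31 and 12.21 in PL2F8 and 11.67 and 11.65 in AB2.2. Over both lines at day 2, 2 of them were called higher and 4 lower, against 22.2% and 23.2% of all genes. Col1a1 was undetected on every array of days 2 and 4. Col6a1 was undetected on every array of day 2 and on the AB2.2 arrays of day 0. The ES marker sum was 15.17 and 15.19 in PL2F8 at day 6, against 16.07 and 16.02 at day 0, and 14.53 and 14.63 in AB2.2 at day 6, against 15.97 and 15.97 at day 0. In PL2F8 at day 6, 7 endoderm, 3 mesoderm and 2 trophoblast markers were called higher, and 2 trophoblast markers lower. Of all genes there, 31% were called higher and 35% lower. With median scaling the PL2F8 counts were 5 higher and 3 lower for endoderm and 2 higher and 1 lower for mesoderm. For trophoblast they were 0 higher and 3 lower. In AB2.2 all 11 endoderm markers were higher under each scaling. The part of these cell types in the members' changes was not tested. In such bulk RNA, fewer cells of a type and less RNA per cell cannot be told apart.

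Neighbouring genes of the domains were taken from lists by position, and their counts differed by domain. At day 6 over both lines, 67.8% of all genes were called, 33.9% higher and 33.9% lower. Around H19 and Igf2, 3 of 7 listed genes were measured and all were called higher at day 6, Ctsd (a lysosomal protease) by 0.94 ± 0.11, Mrpl23 by 0.55 ± 0.06 and Tnnt3, undetected at day 0 and detected on 2 of 4 arrays at day 6, with no size given. With median scaling 2 were higher and Mrpl23 was lower (-0.33). In the domain of Dlk1, none of the 4 measured genes was called over both lines (3 were lower with median scaling). Dio3, which inactivates thyroid hormone, changed by 0.69 ± 0.15 in PL2F8 and by -0.54 ± 0.15 in AB2.2, both called, but with median scaling by -0.11 (adjusted p = 0.549) and -0.28 (adjusted p = 0.133), neither called. Rtl1 changed by -0.23 ± 0.13, not called. Wdr25 and Ppp2r5c were not called over both lines either. Around Cdkn1c, 11 of 12 genes were measured, with 5 higher and 1 lower (1 higher and 7 lower with median scaling). Kcnq1ot1, the paternally expressed noncoding RNA of that domain, was undetected at day 0 and at least 2.13-fold higher at day 6. Tspan32 was detected at day 0 and not at day 6, and was at least 2.18-fold lower at day 6, while Cd81 rose by 0.55 ± 0.05 and Dhcr7 by 0.43 ± 0.07 (-0.18 and -0.39 with median scaling).

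All 3 measured neighbours of Grb10 fell at day 6, when 33.9% of all genes were called lower. Cobl fell by 3.59 ± 0.09, Ddc (aromatic amino acid decarboxylase) fell by 3.10 ± 0.11 and Fignl1 fell by 0.68 ± 0.05. Of the Peg3 neighbours, neither Usp29 nor Zfp264 was called. Near Mest, Cep41 fell by 1.56 ± 0.10, Copg2 rose by 0.28 ± 0.07 (-0.42 with median scaling), and Klf14, undetected at day 0, was at least 1.07-fold higher. Near Peg10, Pon2 fell by 0.61 ± 0.06 and Ppp1r9a by 0.30 ± 0.07, and Pdk4 rose by 0.38 ± 0.07 (-0.39 with median scaling). Calcr, called higher as well, was detected on 1 of 4 arrays at day 6 and none at day 0, so no size is given. With median scaling these lists shifted down, to 1 higher and 4 lower near Peg10 and 1 higher and 2 lower near Mest, as against 2 higher and 3 lower, and 2 higher and 1 lower, as normalized here.

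Other imprinted genes did not share a direction. Of 37 listed, 24 were measured at day 6, with 9 higher, 11 lower and a median of 0.02. Of all genes, 33.9% were called higher and 33.9% lower, with a median of 0.01. With median scaling 5 were higher and 15 lower. Zdbf2, a paternally expressed zinc-finger gene, was undetected in PL2F8 at day 6 and at least 8.26-fold lower there, and in AB2.2 it fell by 0.88 ± 0.09. Rasgrf1, an exchange factor for RAS, was undetected at day 0 and at least 1.8-fold higher at day 6. Igf2r, which clears IGF2 from the cell surface, rose by 1.04 ± 0.06, with 0.90 ± 0.09 in PL2F8 (-1.13 with median scaling) and 1.18 ± 0.09 in AB2.2. Gnas, the G protein alpha subunit gene, was at least 4.48-fold higher in PL2F8 at day 6 and undetected at days 0 and 6 in AB2.2.

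A list of 21 genes was drawn up around imprint maintenance. It also holds genes that add or oxidize DNA methylation, so it does not stand for the keeping of imprints alone. At day 6, 18 were measured, with 4 higher and 11 lower and a median of -0.48 (2 higher and 14 lower with median scaling). Over all genes 33.9% were higher and 33.9% lower. ZFP57, which binds methylated imprinting control regions, is the product of Zfp57, which fell by 2.40 ± 0.12 over both lines. Tet2 and Tet1, which oxidize methylated cytosine, fell by 2.19 ± 0.07 and 1.77 ± 0.05. Dnmt3l, the cofactor of the de novo methyltransferases, fell by 0.72 ± 0.07 in PL2F8 and by 2.86 ± 0.07 in AB2.2, with changes of -2.49 in PL2F8 and -2.69 in AB2.2 under median scaling.

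In the IGF pathway, 15 of 16 listed genes were measured, with 10 higher and 1 lower at day 6 and a median of 0.73, against 33.9% of all genes in each direction. With median scaling 7 were higher and 4 lower, and in PL2F8 alone none was higher and 10 were lower. Irs2, an adaptor of the insulin and IGF receptors, rose by 2.44 ± 0.09 and the insulin receptor Insr by 1.23 ± 0.05, but in PL2F8 they were 0.28 (not called) and -1.22 with median scaling. Igfbp5, a secreted IGF-binding protein, rose by 0.55 ± 0.07 in PL2F8, where it was -0.18 and not called with median scaling (adjusted p = 0.18), and by 3.37 ± 0.07 in AB2.2. Igfbp7 fell by 3.16 ± 0.14 over both lines, with changes of -2.95 ± 0.20 in PL2F8 and -3.37 ± 0.20 in AB2.2.

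**Figure D5:**
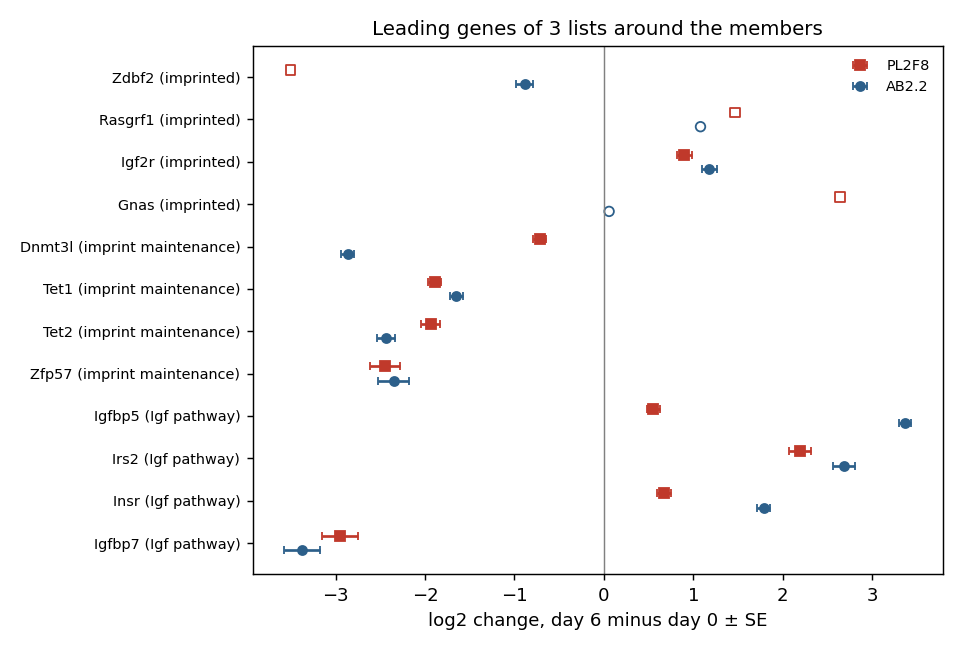
Change at day 6 against day 0, on the log2 scale with the standard error of the model, of the 4 genes with the smallest p in each of 3 lists, in PL2F8 (squares) and AB2.2 (circles); open symbols, without error, mark genes undetected on every array of 1 day or both. Tet1, Tet2, Zfp57 and Igfbp7 are lower in both lines, and Igfbp5 changed by 0.55 in PL2F8 and 3.37 in AB2.2.

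Across the 10 means of line and day, the patterns of H19 and Igf2 were alike (Pearson r = 0.857), as were H19 and Dlk1 (0.853) and Igf2 and Dlk1 (0.852), while Meg3 and Dlk1 gave 0.449. Impact ran against Grb10 (-0.788) and Peg10 (-0.79), and Grb10 with Peg10 (0.831) and Mest (0.825). These describe 10 points that share arrays and days and have no p. Over all genes, those closest to H19 included Tceal9 (0.984), Eps8l2 (0.983), Bcl9l (0.979) and Csrp1 (0.976). Closest to Igf2 were Scarf2 (0.980), Phlda1 (0.978), Bex3 (0.972), LOC100046883 (0.971) and Rcan1 (0.962). For Dlk1 they were Nipal2 (0.969), Lhx5 (0.967), Capn6 (0.962), Mgst2 (0.959) and Ednra (0.959), of which Nipal2 and Lhx5 were near background. Mgst2 (4.79) and Ednra (4.75, undetected) were near it too in AB2.2 at day 0. For Meg3 the closest were Sfi1 (0.980), 4933439C10Rik (0.979), Rragc (0.963), LOC100045005 (0.954) and LOC100047264 (0.954). Of these, 4933439C10Rik was undetected in PL2F8 at day 0 (4.61).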

How the data were processed

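Per the file headers, the authors deposited for each array an average signal (intensity) per probe, not normalized, and a detection p-value; their second table held normalized intensity by gene name. These tables carry no common identifier, so probes were named by matching values over the 18 arrays. Of 45281 probes, 445 (0.98%) lay in lines with shifted fields and were left out. The 10 members had 12 lines and 25 probes, matched within 0.004 (next candidate at 0.0427 or more). RefSeq (GRCm38.p6) gave current symbols, coordinates and sequences.

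Signals were corrected for background by the normal-exponential model of limma 3.58.1 in R 4.3.3, with an offset of 16 and control-bead background estimated by way of the detection p-values, and were quantile normalized on the log2 scale. Probes with a detection p below 0.05 on at least 2 arrays were kept (23879), and each of 15958 genes took its brightest kept probe. Where a gene was undetected on every array of 1 side, its change is given as a bound where a bound above 1-fold existed, or without a size. The limma model had a mean per line and day, 8 residual degrees of freedom and Benjamini-Hochberg adjustment over all genes; groups with 1 array borrow the spread of the others. The number of arrays limits the precision. The method was tested on simulated data.

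Named genes were the members, the pair genes, the 4 genes with the smallest p at day 6 of each list, and the 5 most like each member of the 2 domains, of which 1 is not reported here. Members and lists were chosen with earlier results of these data known. Alternatives changed the background correction, scaling, detection filter, probe choice, model, replicate block and the arrays used.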

Additional observations from a re-analysis of the deposited data

Results flagged for a closer look

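The change at day 6 against day 0 differed between the lines for each of the 10 members by the interaction test in limma. The value, PL2F8 change minus AB2.2 change on the log2 scale, was -1.317 for H19, 0.9525 for Meg3, -1.282 for Grb10, 0.4112 for Cdkn1c and -2.041 for Igf2. It was -2.629 for Dlk1, -2.392 for Peg3, 0.615 for Impact, -1.801 for Mest and -2 for Peg10. Adjusted p-values ran from 4.1e-09 for Dlk1 to 0.01 for Cdkn1c, and 55.2% of all genes were called in the same test. The PL2F8 arrays of day 6 were dim, with mean signals of 137.4 and 134.8, and their part in these differences was not tested. At day 4, on brighter arrays, the differences of Igf2, Dlk1, H19, Grb10, Cdkn1c and Peg10 were called as well, where 29.9% of all genes were, and those of Meg3, Peg3, Impact and Mest were not. With median scaling the day 4 differences of Meg3 (-0.81), Peg3 (-0.92) and Mest (-0.71) were called too, and the median over all genes was -0.37.

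The difference Meg3 minus Dlk1 moved in opposite directions, up on all 3 late PL2F8 arrays and down on all 3 late AB2.2 arrays. The PL2F8 shift minus the AB2.2 shift was 3.88, and this difference was not tested.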

How the results depend on the processing

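The direction or side of the threshold was compared under 27 alternatives. Of the values for single members over both lines, between lines and in the day 6 interaction, 14 reversed. With median scaling, Mest became -0.43 at day 6 and -0.40 at day 8, Grb10 -1.78 and Impact -1.33 at day 8, Impact -0.41 between lines, and the interactions of Meg3, Cdkn1c and Impact -1.45, -1.74 and -1.34. The mean of the kept probes turned Grb10 at day 6 to 0.15 and Impact at day 8 to -0.39. Without the dim PL2F8 arrays of days 6 and 8, the changes at those days rested on AB2.2 alone and no longer covered both lines. Grb10 at day 6 was then 0.34, and Peg10 was 0.75 at day 6 and 1.08 at day 8. Dlk1 between lines was then 0.27, averaged over the earlier days alone. These reversals thus set different lines or days against the main values, and do not show an effect of processing alone. Another 35 of these member values lost their call and 3 gained one, 20 of the lost calls in the additive model. Changes within PL2F8 at days 6 and 8 were not among the values counted. Several of them also reversed with median scaling, such as H19 at day 8 (2.18 to -1.39) and Cdkn1c at day 6 (1.70 to -0.29).

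Without those dim arrays, genes with an interaction on any day went to 6516, against 12819. The test then covered days 2 and 4 alone in place of days 2 to 8, so the counts are not alike. The pairs then rested on AB2.2 alone, where 0.1 is the smallest exact p, and were 0.56 (H19 minus Igf2), 1.47 (Cdkn1c minus Phlda2), 3.30 (Peg3 minus Usp29) and 4.30 (Grb10 minus Cobl), each with adjusted exact permutation p = 0.15. Median scaling took Peg3 minus Usp29, whose Usp29 side was at background, to 1.06 (adjusted exact permutation p = 0.39). An additive model of line and day, which puts the interaction into the error, called 1783, 4136, 5844 and 5837 genes at days 2, 4, 6 and 8 and 4686 between lines, against 7248, 9592, 10813, 11122 and 11348, with 3 members at day 2 and 4 at day 4. Leaving out each replicate kept 8 to 10 members called in each comparison. Without PL2F8 day 6 replicate 2, Peg10 was called at day 6 (-0.48), and Mest at day 4 lost its call without 1 of 3 arrays (0.17 to 0.21).

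Replicate numbers did not pair the samples, since deviations of same-numbered arrays correlated between -0.03 and 0.04 over 28 pairs of groups. The replicate block called 10759 genes and 9 members at day 6 and 10879 genes and 10 members at day 8. In PL2F8 at days 6 and 8, dim members such as Peg10 were limited by signal near background, and day 8 has 1 array a line.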
